A study of Mus musculus with 10 samples.

Results

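The Suz12 sites of mouse chromosome 11 are the 921 regions of that chromosome among the 8876 Suz12 binding sites that the authors called in control embryonic stem cells (ESCs). They were chosen by chromosome alone, but with earlier results of these data known, so the chromosome's ranks below are a description. The 18 other autosomes, with 7786 sites, served for comparison. Each site was scored for 3 things. Suz12 was counted as lost where the same region was in the authors' list of sites depleted of Suz12 on Pcl3 knockdown. H3K27me3 was counted as lost where the center of a site in their H3K27me3-depleted list lay within 2 kb, and Pcl3 as present where the center of a Pcl3 site did.

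The study sequenced chromatin immunoprecipitates (ChIP-seq) from ESCs of the BayGenomics gene trap line XG122 with the genotype Suz12 Suz12TAP/+, in which 1 allele of Suz12 makes the protein with a 6xHis-3xFlag tag from its own locus. These cells carried either a scramble shRNA or a Pcl3 shRNA, and Suz12-TAP was precipitated with FlagM2 and H3K27me3 with an antibody to the mark. Pcl3-TAP was mapped with FlagM2 in another line, E14 ESCs carrying Pcl3 shRNA7 or shRNA6, whose tagged Pcl3 escapes the shRNA. Each condition had 1 library with its input, and Pcl3-TAP had 2 libraries but 1 site list, so nothing here was compared between replicates and every interval below covers counting over sites only. The lists hold no reads per site or per library, and read totals of the libraries were not used here, so no value is given with the depth behind it.

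Suz12 is a core subunit of Polycomb repressive complex 2 (PRC2), whose Ezh2 subunit writes H3K27me3, a mark of repressed chromatin. In ESCs PRC2 sits mainly at CpG-rich starts of developmental genes that are silent and are switched on later. Pcl3 (Phf19) is a Polycomb-like accessory subunit that reads histone marks through its Tudor domain and helps to bring PRC2 to chromatin.

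The windows below show what lies at the middle of the most significant chromosome 11 sites that lost 1 of the marks or neither, and at the sites of Hand1 and Hoxb13, which lost both and which the study named among its developmental targets. All are from mm9, on the plus strand, with each CpG in capitals. Lost for Suz12 but not for H3K27me3 by the distance rule was the site in the T-box factor gene Tbx2, shown over chr11:85650276-85650475 in an intron. Lost for H3K27me3 but not for Suz12 was a site whose nearest start is that of Otx1, a homeobox gene of the forebrain, shown over chr11:21907151-21907350 in an intron of Ehbp1. Lost for neither was a site in an intron of the growth factor gene Fgf18, shown over chr11:33022901-33023100. The Hand1 window, chr11:57644001-57644200, lies in an intron of that heart and trophoblast factor gene, and the Hoxb13 window, chr11:96056001-96056200, lies in coding sequence.
Tbx2: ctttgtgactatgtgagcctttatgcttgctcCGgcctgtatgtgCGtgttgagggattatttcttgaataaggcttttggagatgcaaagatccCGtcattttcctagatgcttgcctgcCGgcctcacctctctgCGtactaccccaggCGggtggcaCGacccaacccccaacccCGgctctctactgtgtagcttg
Otx1: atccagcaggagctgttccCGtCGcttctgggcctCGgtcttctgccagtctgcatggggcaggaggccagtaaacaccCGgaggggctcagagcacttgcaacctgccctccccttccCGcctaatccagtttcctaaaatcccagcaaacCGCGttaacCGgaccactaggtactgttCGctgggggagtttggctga
Fgf18: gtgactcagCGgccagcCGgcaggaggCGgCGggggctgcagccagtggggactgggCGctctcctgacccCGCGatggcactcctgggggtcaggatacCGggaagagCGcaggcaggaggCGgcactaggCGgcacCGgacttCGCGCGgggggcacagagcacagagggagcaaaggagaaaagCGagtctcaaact
Hand1: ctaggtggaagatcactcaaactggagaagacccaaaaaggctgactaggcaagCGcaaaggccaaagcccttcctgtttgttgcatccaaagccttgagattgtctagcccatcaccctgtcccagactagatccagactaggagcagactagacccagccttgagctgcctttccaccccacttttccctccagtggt
Hoxb13: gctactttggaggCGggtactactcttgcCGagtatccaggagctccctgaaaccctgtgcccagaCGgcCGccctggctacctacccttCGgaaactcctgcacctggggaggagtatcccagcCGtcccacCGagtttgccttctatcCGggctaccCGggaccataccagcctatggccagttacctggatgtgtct

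These windows differ widely in CpG content. The Fgf18 window, where neither mark was lost, held 16 CpG in 200 bases, the Hoxb13 window held 9, and the Hand1 window held 1. The centers of broad sites such as Hand1 need not fall on their CpG-rich part, and CpG content did not sort these 5 windows by outcome. GCGCGC, a CpG-rich word, was present in 0 of them. Over all 921 sites, the 500 bases around the center held a median of 6.4 CpG per 100 bases, against 7 on the other autosomes. The same word, searched in these 500 bases and equal to its own reverse complement, was present at 32.4% of the chromosome 11 sites and at 38.1% of the others. At positions 10 kb away from the chromosome 11 sites it was present at 2.17%. A match is a description of these bases only.

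Chromosome 11 was rich in Suz12 sites. It makes up 4.93% of the autosomal sequence and holds 7.72% of the protein-coding genes, but 10.6% of the autosomal Suz12 sites. That is 7.56 sites per Mb, the highest of the 19 autosomes, where the others ranged from 2.15 to 5.2. Per 100 protein-coding genes it held 55.7 sites, with the others between 27.5 (chromosome 7) and 54.9 (chromosome 18). Relative to gene number the chromosome was thus close to the highest of the others. Strength, taken as −log10 of the deposited p-value for binding in scramble cells, had a median of 20.9 (quartiles 10.7 and 65) against 27.2 (12.5 and 75.6) on the other autosomes. The difference was −6.26 (95% interval from order statistics −9 to −3.78), but chromosome 10 had a lower median of 19.9, and with only sites called at 1e-10 or below the interval covered 0 (−4.38, −9.05 to 1.43). The median width was 950 bp against 1100 bp. Of the 921 sites, 561 or 60.9% lay within 2 kb of the start of a coding or microRNA gene, against 65.1%.

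Suz12 was lost at 603 of the 921 sites, or 65.5% (95% Wilson interval 62.3% to 68.5%), where the whole list had 64.5%. The difference from the other autosomes was 0.908 percentage points (95% Newcombe interval −2.39 to 4.09), an interval that covers 0. Among sites with a binding p-value of at most 1e-10 the difference was 4.75 points (1.56 to 7.63). These shares count sites called as depleted and do not measure how far Suz12 fell within a site. H3K27me3 was lost at 180 sites, or 19.5% (17.1% to 22.2%), where the whole list had 7.37%. The other autosomes together had 6.09%, a difference of 13.5 points (11 to 16.2), and singly they ran from 2.84% on chromosome 3 to 9.19% on chromosome 8. Pcl3 lay at 335 sites, or 36.4% (33.3% to 39.5%), where the whole list had 44.9%. This was the lowest share of the 19 autosomes, 9.47 points below the others (difference −9.47, interval −12.7 to −6.12). That share is taken over its Suz12 sites, of which chromosome 11 had the most. Its Pcl3 sites were not few, at 408 (rank 2 of 19) or 24.7 per 100 protein-coding genes, where the others had a median of 24.8. The next lowest Pcl3 share was 40.4% on chromosome 7.

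**Figure D1:**
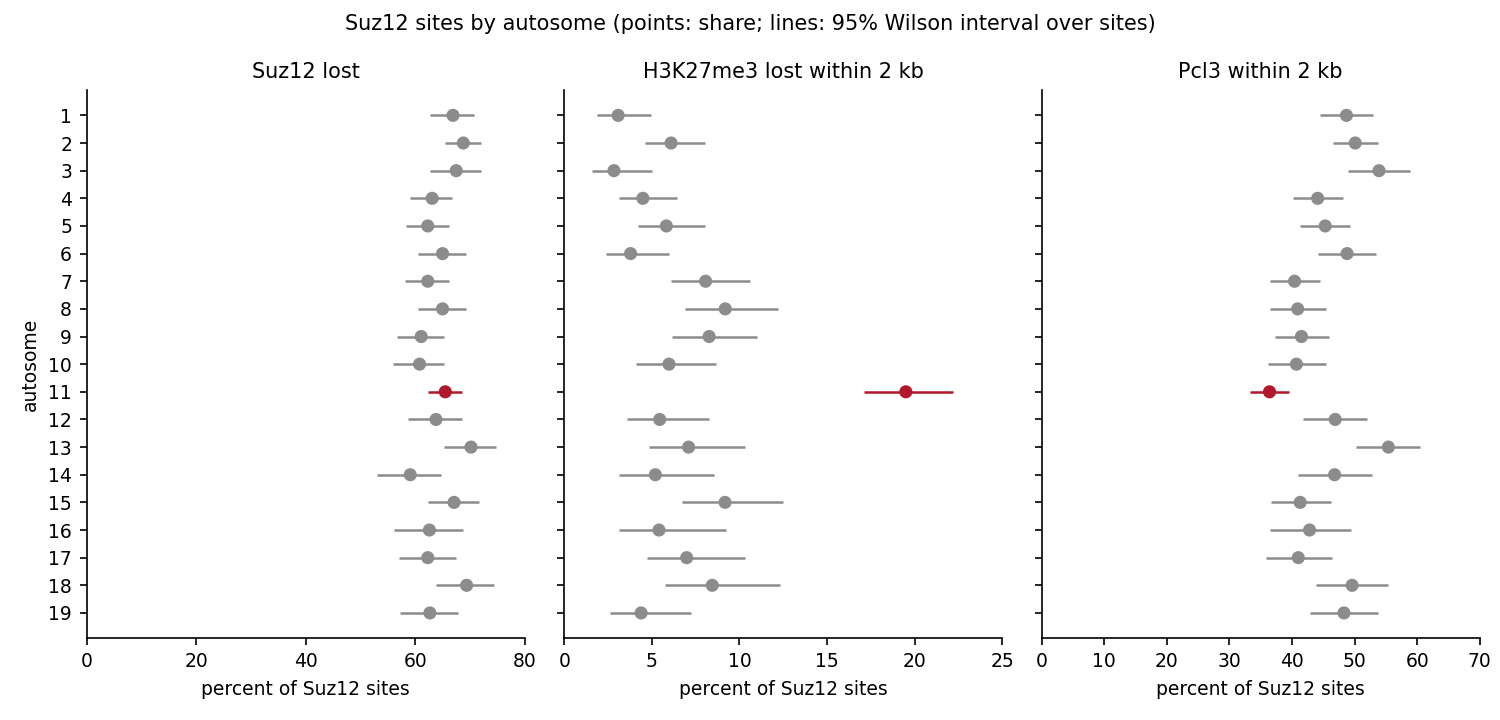
Percent of Suz12 sites of each autosome (vertical axis) with Suz12 lost, H3K27me3 lost or Pcl3 within 2 kb (horizontal axes, percent of the autosome's Suz12 sites, each panel from 0 on its own scale). Points are shares, lines 95% Wilson intervals over sites, and chromosome 11 is in red: at 65.5% it sits among the others for Suz12, at 19.5% above all of them for H3K27me3, and at 36.4% lowest for Pcl3.

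The 4 site lists divided differently between chromosomes. Of the autosomal sites in each, chromosome 11 held 10.7% of the Suz12-depleted, 7.96% of the Pcl3 and 29.2% (198 of 677) of the H3K27me3-depleted sites. Its share of the H3K27me3-depleted list grew as weaker calls were removed, to 32.2% at a p-value of at most 1e-08, 36.8% at 1e-10 and 48.9% at 1e-15, where 23 of 47 sites were left. Its share of the Suz12 list moved the other way, to 9.5% at 1e-15, and its share of the Pcl3 list stayed between 7.83% and 7.98%. Its 198 H3K27me3-depleted sites had a median −log10 p of 9.04 and a median width of 1425 bp, against 8.24 and 1350 bp for the 479 on the other autosomes. The authors set paired libraries to the same background over the whole genome, and the lists carry no copy number. A difference between the scramble and the knockdown cells in the number of copies of chromosome 11 would enter both the H3K27me3-depleted and the Suz12-depleted calls. The input libraries of these cells were not analysed here. The part of such a difference in the H3K27me3 and Suz12 results was not tested.

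Counted by outcome, 158 sites (17.2%) lost both Suz12 and H3K27me3, 445 (48.3%) lost Suz12 alone, 22 (2.39%) lost H3K27me3 alone and 296 (32.1%) lost neither. On the other autosomes these shares were 5.28%, 59.3%, 0.809% and 34.6%. Of the 180 chromosome 11 sites that lost H3K27me3, 158 (87.8%) also lost Suz12, a share close to the 411 of 474 (86.7%) on the other autosomes. Sites that lost both were strong and broad, with a median strength of 92.1 and a median width of 1950 bp. Those that lost Suz12 alone had 33.3 and 1200 bp, and those that lost neither 9.49 and 600 bp. The 22 that lost H3K27me3 alone were as weak (9.66 and 600 bp) and poor in CpG, with a median of 2.4 per 100 bases, and GCGCGC was present at 1 of them. Loss of H3K27me3 was about as frequent near gene starts (114 of 561, or 20.3%, interval 17.2% to 23.8%) as away from them (66 of 360, or 18.3%, interval 14.7% to 22.7%). On the other autosomes the shares were 5.21% and 7.73%.

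Both losses were more frequent at stronger sites, on chromosome 11 and elsewhere, so chromosome 11 was also compared within deciles of strength set over all 8876 sites. Strength and the call of Suz12 loss share the scramble Suz12 library, and a fall is harder to call at a weakly bound site. How far the rise with strength reflects this was not tested. In the weakest decile Suz12 was lost at 6.96% of the chromosome 11 sites against 1.85% of the others, in decile 3 at 44.6% against 26.6%, in decile 4 at 65.7% against 46.8%, and from decile 7 on at all of the chromosome 11 sites against at least 97.2%. Weighted over deciles, the share of sites that lost Suz12 was 7.15 points higher on chromosome 11 (5.06 to 9.24), and Pcl3 was present 5.88 points less often (difference −5.88, interval −8.61 to −3.16). H3K27me3 was lost at 5.94% to 10.6% of the chromosome 11 sites in the 5 weakest deciles, against 2.13% to 4.08% of the others. In decile 6 it was lost at 20.5% against 3.29%, and in decile 7 at 16.5% against 6.51%. In deciles 8, 9 and 10 it was lost at 44.3%, 43.9% and 46.1% against 9.32%, 12.7% and 14.3%. Together these 3 deciles held 241 chromosome 11 sites, of which 108 (44.8%, interval 38.7% to 51.1%) lost H3K27me3, while the other autosomes had 288 of 2383 (12.1%) and singly between 6.02% (chromosome 1) and 16.9% (chromosomes 9 and 16).

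**Figure D2:**
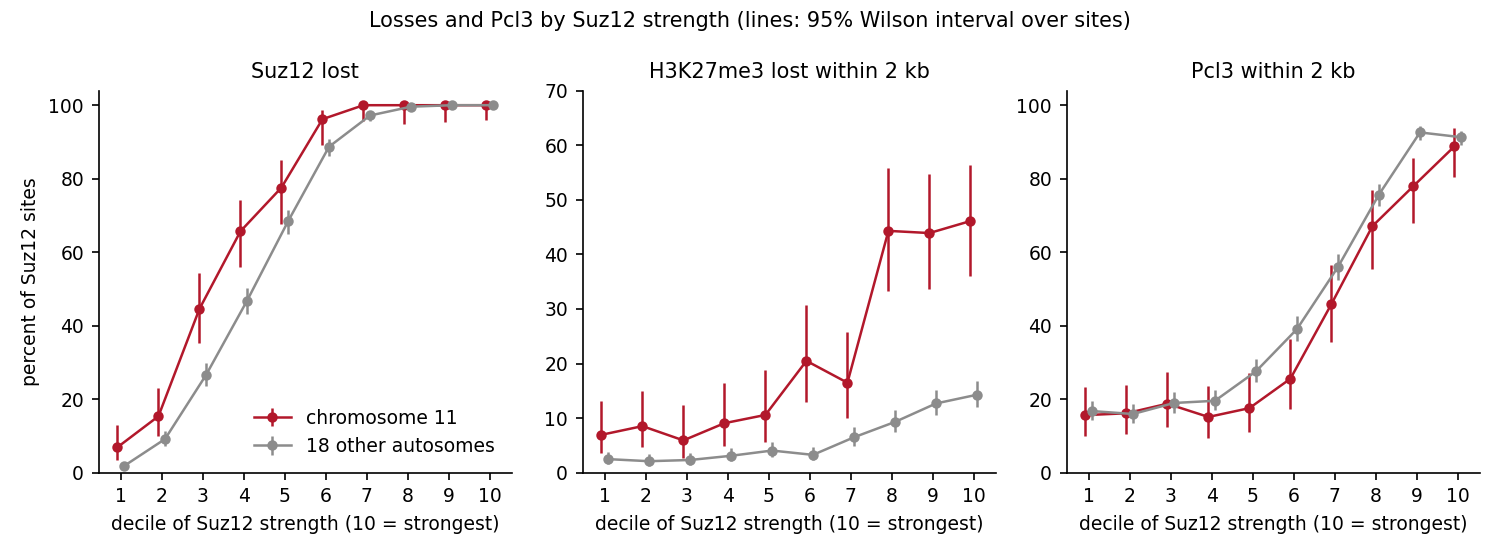
Percent of Suz12 sites (vertical axes) with Suz12 lost, H3K27me3 lost or Pcl3 within 2 kb in each decile of Suz12 strength (horizontal axes), for chromosome 11 in red and the 18 other autosomes in grey, with 95% Wilson intervals over sites. The H3K27me3 panel, which runs to 70%, shows chromosome 11 near 44.8% in the 3 strongest deciles and the others at 14.3% or less.

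Width gave the same order. Counted by at least 1 shared base, which suits broad sites better than the distance between centers, H3K27me3 was lost at 4.93% of the chromosome 11 sites under 1 kb wide, at 21.2% of those of 1 to under 2 kb, at 44.3% of those of 2 to under 4 kb and at 20 of 31 (64.5%) of those of 4 kb or more. The other autosomes had 1.9%, 5.31%, 13.1% and 20.7%. A wider site also has more bases with which to meet a depleted site. By the distance rule the chromosome 11 shares were 8.35%, 23.3%, 45% and 45.2%, with no further rise in the widest class. The other autosomes then had 2.77%, 5.61%, 13.1% and 16.8%.

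Sites with Pcl3 were compared with sites without. On chromosome 11 Suz12 was lost at 281 of 335 sites with Pcl3, or 83.9% (whole list 84.9%), and at 322 of 586 without, or 54.9% (whole list 47.8%). The difference of 28.9 points (23.1 to 34.3) went with strength, as sites with Pcl3 had a median strength of 78.4 and those without 14.7. Weighted over deciles of strength it was −0.937 points (−5.45 to 3.58). This weighted value says little, since in deciles 7 to 10 Suz12 was lost at all chromosome 11 sites, with and without Pcl3, and strength shares a library with the call of loss. On the other autosomes the shares were 85.4% and 47%, and the weighted difference was 1.37 points (−0.293 to 3.04).

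For H3K27me3 the split by Pcl3 was wider on chromosome 11. The mark was lost at 120 of 335 sites with Pcl3, or 35.8% (whole list 10.7%), and at 60 of 586 without, or 10.2% (whole list 4.62%). The difference was 25.6 points (19.9 to 31.3), against 4.69 points (3.61 to 5.8) on the other autosomes, whose shares were 8.63% and 3.94%. Weighted over deciles it was 11.8 points on chromosome 11 (5.01 to 18.6), while the other autosomes had −0.477 points (−1.77 to 0.819). By shared bases the weighted values were 8.13 (1.99 to 14.3) and −1.3 (−2.52 to −0.0834). The chromosome 11 value rests largely on the weak sites. In deciles 1 to 5, with 15 to 19 Pcl3 sites each, H3K27me3 was lost at 16.7% to 31.6% of the sites with Pcl3 and at 2.44% to 8.57% of those without. Among stronger sites the shares lay closer, at 20% and 20.7% in decile 6, 20.5% and 13% in decile 7, 46.8% and 39.1% in decile 8 and 43.8% and 44.4% in decile 9. In decile 10 they were 48.1% and 30%, the latter over 10 sites. Chromosome 11 stood above the other autosomes on both sides of the split, by 27.1 points with Pcl3 (22 to 32.1) and by 6.1 points without (3.73 to 8.48), both weighted over deciles. Its sites without Pcl3 lost Suz12 more often than those of any other autosome, where the shares ran from 39.9% to 53.8%.

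The call "without Pcl3" carries a limit at broad sites. The widest Pcl3 site of chromosome 11, 81300 bp over the Hoxb genes (chr11:96129151-96210450), shared bases with 24 Suz12 sites, of which 23 were scored as without Pcl3 because its center was far away. Suz12 was lost at 16 of the 24 and H3K27me3 at 5. The 5 most significant chromosome 11 sites scored as without Pcl3, at Hoxb8, Hoxb5, Hoxb9, Mir10a and Hoxb3, all lie inside it. On the whole chromosome 31 of the 586 sites without Pcl3 (5.29%) shared a base with a Pcl3 site.

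Along the chromosome, loss of H3K27me3 was spread rather than gathered in 1 place. In bins of 5 Mb, numbered from the start of the chromosome, 22 of 25 bins held at least 10 Suz12 sites, and every one of these 22 had some loss of H3K27me3, between 3.23% (bin 13) and 31.6% (bin 23) of its sites, with a median of 18.6%. Of the 293 such bins on the other autosomes 118 had none, their median was 4.44%, 18 (6.14%) reached 18.6%, and the highest, 41.7%, was above that of chromosome 11. Loss of Suz12 ran from 50% to 81.8% across the 22 bins (median 66%), within the range of the other bins (31.2% to 100%, median 65.2%). The sites themselves were gathered towards the far end. The bins from 95 to 100 Mb, 100 to 105 Mb and 115 to 120 Mb held 138, 97 and 98 sites, 36.2% of the total, with H3K27me3 lost at 24%, while the 22 other bins of the chromosome had 17%. Without the 45 sites of the Hoxb cluster and the 20 kb on either side of it, the share for the chromosome was 18.7%.

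**Figure D3:**
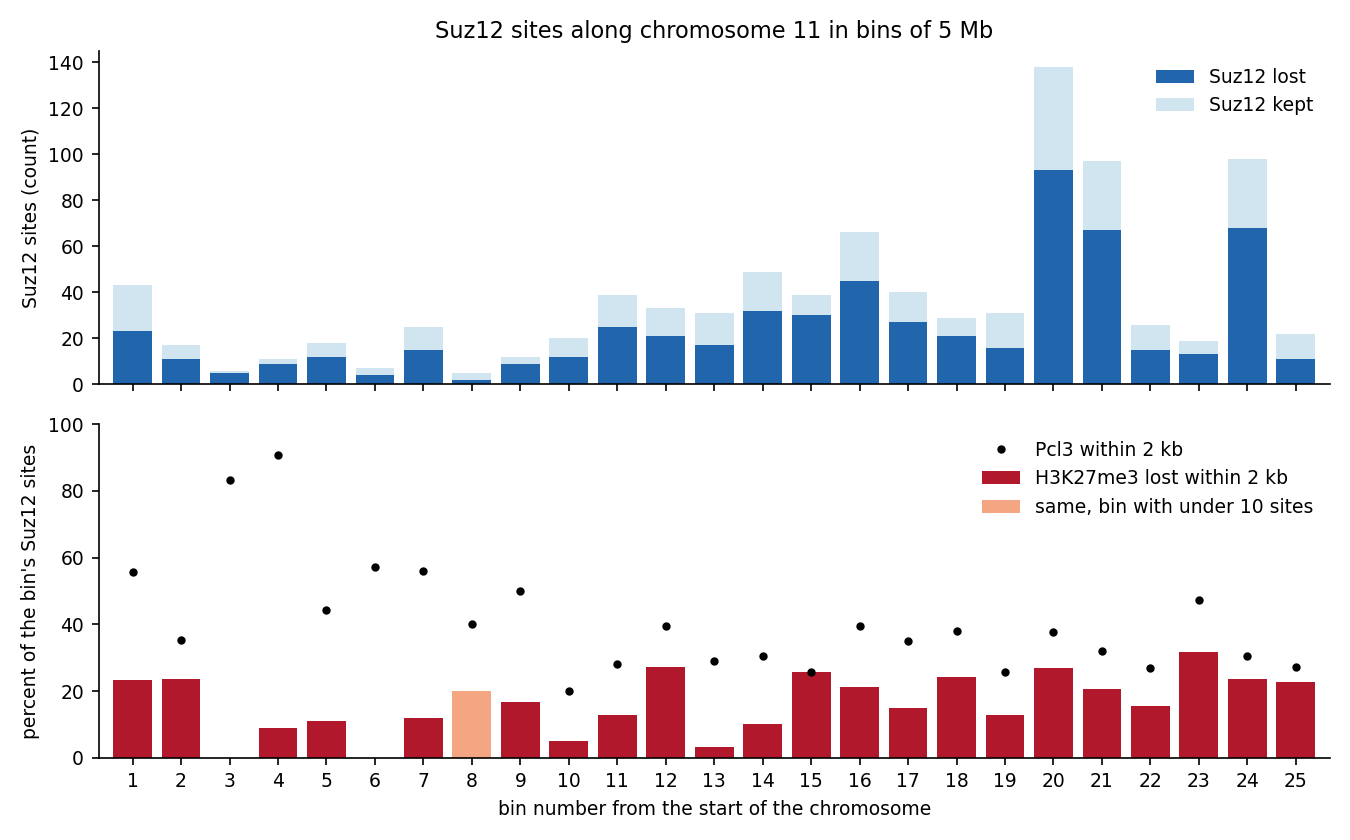
Suz12 sites in the 25 consecutive 5 Mb bins of chromosome 11 (horizontal axis, bin number, the last bin shorter). The upper panel stacks the counts of sites with Suz12 lost and kept, and the lower panel gives the percent of each bin's sites with H3K27me3 lost (bars, paler with under 10 sites) or with Pcl3 (dots): bins 20, 21 and 24 hold most sites, and H3K27me3 loss is present in all bins with at least 10 sites.

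Neighbouring sites lay a median of 32.2 kb apart, and the longest stretch without a site was 4940 kb (chr11:37050801-41995300). The longest run of neighbours that all lost Suz12 held 14 sites over 3860 kb (chr11:53792801-57651100) and took in Hand1. The longest run that all lost H3K27me3 held 7 sites over 22.9 kb (chr11:96112051-96134900), from upstream of the microRNA gene Mir196a-1 to Hoxb9. At the start of the assembled sequence, 19 sites lay within 201 kb (chr11:3031801-3232600) around Sfi1, a centrosome protein gene. Pcl3 was present at 17 of them, Suz12 was lost at 9 and H3K27me3 at 5. How well reads map at the start of the assembled sequence was not examined. Without these 19, an alternative chosen after the data were seen, Pcl3 was present at 35.3% of the sites and H3K27me3 was lost at 19.4%.

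The sites of each outcome were ranked by their binding p-value. The binding p-value was written as 0 at 42 sites, which were ordered by width. Among the first that lost both marks were those at Hoxb8, at Lhx1 (a LIM homeobox gene of head and kidney), at Tlx3 (a homeobox gene of sensory neurons) and at Hand1, with widths from 7400 to 11700 bp. The H3K27me3-depleted sites near their centers had p-values from 6.32e-08 at Hoxb8 to 7.07e-17 at Hand1. The most significant sites that lost Suz12 alone were at Tbx2, Otx1, Cbx8 (a Polycomb protein), Hoxb5 and Hic1, a zinc finger repressor gene, and were 8950 to 16950 bp wide. At these sites the distance rule decides the call. An H3K27me3-depleted site shared bases with 4 of the 5, all but Otx1, and at Hic1 it had a p-value of 2.67e-20 with its center 2200 bp away. Over all 445 sites that lost Suz12 alone, 6 (1.35%) shared a base with an H3K27me3-depleted site, so this applies to few but strong sites.

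The most significant sites that lost H3K27me3 alone were 650 to 1100 bp wide. Those at Ush1g and Wnt9a shared no base with an H3K27me3-depleted site, and of all 318 sites that kept Suz12, 11 shared one, against 22 by the distance rule. The 5 lay in an intron of Ehbp1 4350 bp from the start of Otx1 (p-value 5.90e-23), 2970 bp from Hoxb9 (1.00e-19), in a coding exon of Srcin1 (1.11e-15), near Ush1g, a scaffold protein of inner ear hair cells (1.90e-15), and in an intron of Wnt9a (6.29e-12). The most significant sites that lost neither were in introns of Fgf18 (2.89e-30), Hoxb9 (6.16e-30) and Arhgap27 (5.30e-28), 54912 bp from the nearest start, that of the type I collagen gene Col1a1 (8.52e-27), and in a coding exon of Msl1 (1.35e-26). All 5 had no Pcl3 center within 2 kb, although the Hoxb9 site lies inside the widest Pcl3 site, and 14.2% of all 296 sites that lost neither had Pcl3. They were 1050 to 1500 bp wide, and apart from Hoxb9 lay at least 77600 bp from the nearest H3K27me3-depleted site.

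The losses of H3K27me3 were also ranked by their own p-values. Among the smallest were those of sites in an intron of Myo18a, an unconventional myosin gene (7.37e-28, chr11:77671901-77674800), at the start of the assembled sequence near Sfi1 (5.10e-27, chr11:3001251-3003900), at Hoxb1 (2.90e-26, chr11:96226151-96229350) and at Sphk1, a sphingosine kinase gene (2.50e-25, chr11:116392201-116396100). The Sfi1 site had no Suz12 center nearer than 29575 bp. At the other 3 the nearest Suz12 site lost Suz12, and Pcl3 was within 2 kb except at Myo18a, where the nearest Pcl3 center was 72100 bp away.

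Counted by gene, 519 of the 1653 protein-coding genes of chromosome 11 (31.4%) had a Suz12 site within 2 kb of a start, against 24.3% on the other autosomes. Of these bound genes 388 (74.8%, interval 70.8% to 78.3%) lost Suz12, where bound genes of all autosomes had 71.6%. H3K27me3 was lost at 111 of them (21.4%, interval 18.1% to 25.1%), where bound genes of all autosomes had 7.23%. With Pcl3 near the start the share was 39.9% (83 of 208) and without it 9% (28 of 311), against 9.02% and 2.61% on the other autosomes. Of the 1134 genes without a Suz12 site, 3 (0.265%) had a loss of H3K27me3.

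The genes were also counted by lists of families, chosen with earlier results of these data known, so that their counts are a description. Of 111 listed genes other than housekeeping genes, 74 were bound by Suz12, 69 lost it and 39 lost H3K27me3. Of the 67 bound ones that are protein-coding, 63 lost Suz12 and 33 lost H3K27me3. Over all bound protein-coding genes of the chromosome the shares were 74.8% and 21.4%. But the listed bound genes had strong sites, with a median strength of 212. In deciles 8 to 10 all chromosome 11 sites lost Suz12 and 44.8% lost H3K27me3. The lists were not compared at matched strength, and genes that share a site are counted separately. Of 19 housekeeping genes, among them the ribosomal protein genes Rpl19 and Rps27a and the actin gene Actg1, 0 were bound, which allows a share of up to 15.8%.

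Of the listed transcription factor genes with a Suz12 site near a start, Rara alone kept Suz12, and the lists do not hold every such gene of the chromosome. All 10 Hoxb genes, which set position along the body axis, were bound and lost Suz12, and 7 lost H3K27me3, with the smallest p-values at Hoxb1 (2.90e-26) and Hoxb13 (7.40e-25), while Hoxb2, Hoxb3 and Hoxb7 had no H3K27me3-depleted site within 2 kb of a start. Of 8 other homeobox genes 7 were bound, all 7 lost Suz12 and 5 lost H3K27me3, among them Lhx1 (1.69e-14), Dlx4 (5.26e-10), Dlx3 (1.79e-08) and Meis1 (7.99e-08). Otx1 and Tlx3 had none within 2 kb of their starts, although the Tlx3 site lost the mark near its center. Of the 5 genes of the bHLH and Ebf list, differentiation factors such as Hand1, Neurod2 and Hes7, all were bound and lost Suz12, and 4 lost H3K27me3, with Ebf1 the exception. The 3 T-box genes lost Suz12, and Tbx4 alone, a factor of the hindlimb, lost H3K27me3 near a start (5.85e-10). Both bound Sox genes lost Suz12, and Sox9 also lost H3K27me3 (4.17e-08). The zinc finger and nuclear receptor list had 5 of 8 genes bound, 4 that lost Suz12 and 2 that lost H3K27me3, Hic1 and Sp6. Its site at Rara, a retinoic acid receptor gene, was weak (p-value 7.35e-18) and kept Suz12. Of 4 forkhead genes Foxj1 was bound and lost Suz12 alone.

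The lists of signalling genes were not tested against one another. In the Wnt list 6 of 7 genes were bound, and all 6 lost both Suz12 and H3K27me3. They were the ligands Wnt3 (1.46e-20 for H3K27me3), Wnt9a (4.40e-14), Wnt3a (5.76e-12) and Wnt9b (2.04e-10), the receptor Fzd2 (3.01e-16) and the feedback inhibitor Axin2 (6.05e-09). The antagonist Sost was unbound. The median strength of their strongest sites was 206, against 119 in the list of other secreted signals. In that list 8 of 11 were bound and lost Suz12, but 1 lost H3K27me3, the BMP antagonist Nog (1.07e-08). Fgf11, Ntn1 and Fgf18 had no H3K27me3-depleted site near a start although their strongest Suz12 sites had p-values of 1.85e-288, 0 and 4.83e-132. Of neurotransmitter and peptide receptor genes 7 of 10 were bound and lost Suz12, and Grin2c, Sstr2, Galr2 and Ngfr also lost H3K27me3, with the smallest p-value at the galanin receptor gene Galr2 (4.47e-20). Of 15 ion channel genes 9 were bound, 7 lost Suz12 and Kcnip1 alone lost H3K27me3 (2.64e-09). The calcium channel subunit genes Cacng5 and Cacnb1 kept Suz12 at weak sites (4.24e-11 and 2.26e-09).

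**Figure D4:**
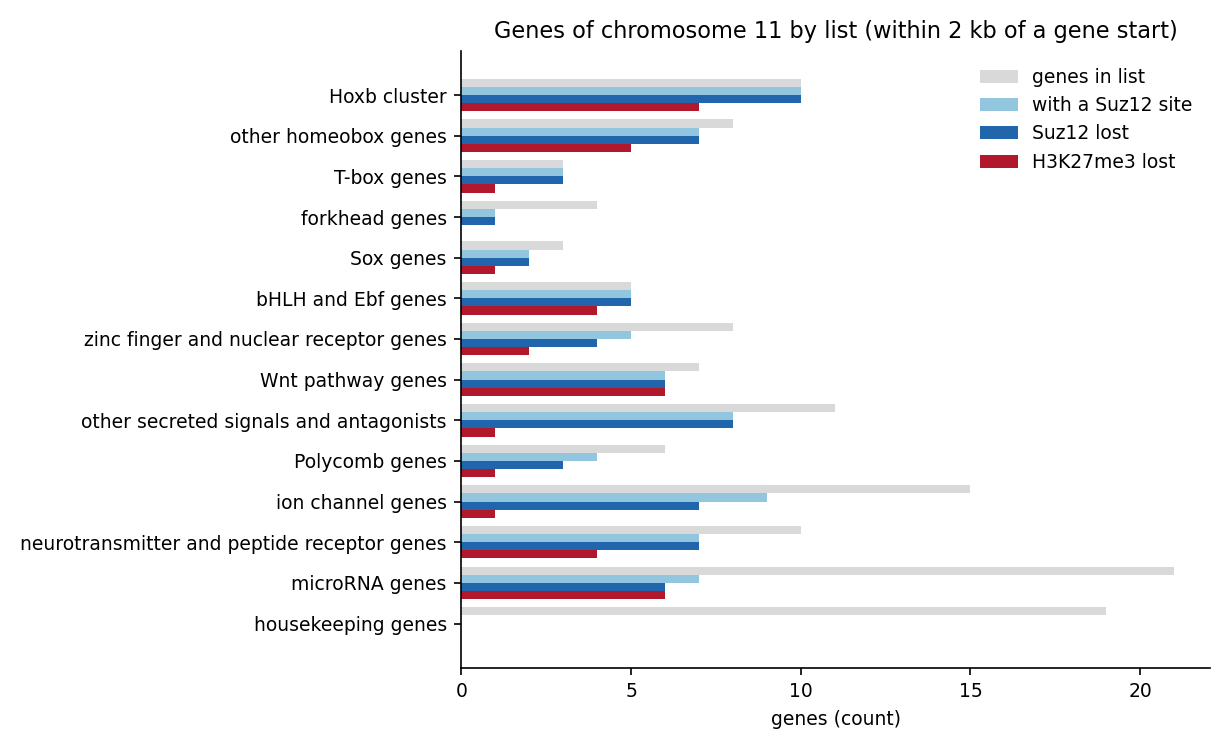
Number of chromosome 11 genes (horizontal axis, from 0) in each of 14 lists (vertical axis), with bars for genes in the list, genes with a Suz12 site within 2 kb of a start, genes that lost Suz12 and genes that lost H3K27me3. All 6 bound Wnt pathway genes lost both, 1 of 8 bound genes of other secreted signals lost H3K27me3, and no housekeeping gene was bound.

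The Polycomb genes of chromosome 11 include Suz12 itself, which had no Suz12 site near its start, as had Ezh1. Cbx2 and Cbx8, which make chromobox proteins of Polycomb repressive complex 1, lost Suz12 and had Pcl3 near a start, with no H3K27me3-depleted site within 2 kb of it. Pcgf2 kept Suz12 at a weak site (1.24e-09) without Pcl3.

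Of 21 microRNA genes 7 were bound, 6 lost Suz12 and the same 6 lost H3K27me3. They were Mir196a-1 (7.02e-21 for H3K27me3), Mir152 (9.79e-13), Mir132 and Mir212 (3.89e-11), Mir10a (6.59e-10) and Mir193 (6.84e-08). These are not separate events. Mir132 and Mir212 share 1 broad Suz12 site of 8950 bp with Hic1, and the loss of H3K27me3 at Mir10a is also that of Hoxb4. Mir196a-1 lies between Hoxb13 and Hoxb9. No share over all microRNA genes is given here, so the counts are a description. Mir338 kept Suz12 at a weak site (1.48e-09). Among the 6, Mir152 stood out by the weakness of its Suz12 site (6.18e-21) and by the absence of Pcl3. The mature microRNAs, from RefSeq and matched for 5 of the 6 genes, are printed with the seed (bases 2 to 8) in capitals to show which have a seed in common.
miR-196a-5p: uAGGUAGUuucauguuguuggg
miR-10a-5p: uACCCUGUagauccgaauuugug
miR-132-3p: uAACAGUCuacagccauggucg
miR-212-3p: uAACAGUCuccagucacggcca
miR-152-3p: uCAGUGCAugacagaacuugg

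The seed AACAGUC was common to miR-132-3p and miR-212-3p, and the other 3 printed had a seed of their own.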

How the data were processed

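ChIP-seq libraries from scramble and Pcl3 shRNA ESCs were aligned by the authors to mm9 with Bowtie (submitters' processing notes), and uniquely aligned reads were kept. The authors equalized the background of paired samples, scanned running windows with the Skellam distribution, joined overlapping significant windows and recomputed 1 p-value per region. They deposited 4 lists with these p-values, which are the values used here. P-values written as 0 (42 on chromosome 11, 435 in all) were placed at the largest finite −log10 value, 307. The p-values of the Suz12-depleted list repeat those of binding, so Suz12 losses were not ranked. Depth is not in the lists and read totals of the libraries were not used here, so no depth or precision is given for a single site.

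Overlaps, shares with 95% Wilson intervals, differences with Newcombe intervals and Mantel-Haenszel differences over deciles were computed with pandas 2.3.3, scipy 1.17.1 and numpy 2.4.6 under Python 3.11.15, and drawn with matplotlib 3.10.9. The functions were tested on simulated data. No test was run, because each condition has 1 library and sites are not replicates. Genes are those of GENCODE vM1 on mm9. A site was named after the nearest start of a coding or microRNA transcript. Named are, in each of the 4 outcomes, among sites without Pcl3 and at the smallest H3K27me3 p-values, the 5 first sites by p-value (ties by width), and members of the gene lists. The sites, lists and rules were chosen with earlier results of these data known. Alternatives were other distances, shared bases, stricter p-values, merged sites, other comparison chromosomes, width as strength, and leaving out the Hoxb cluster. Bases of annotated untranslated regions were left out of the printed windows. Some items that these rules select are not reported here.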

Additional observations from a re-analysis of the deposited data

Results flagged for a closer look

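Both results here concern sites that the comparisons over Suz12 sites leave out. Of the 198 H3K27me3-depleted sites of chromosome 11, 35 had no Suz12 center within 2 kb, and 18 of these shared no base with a Suz12 site either. They were called as lower in knockdown than in scramble cells, the reference in that call. The most significant were at the start of the assembled sequence near Sfi1 (5.10e-27), at Hic1 (2.67e-20) and at Lhx1 (1.69e-14), of which the last 2 shared bases with a broad Suz12 site. The Sfi1 site lies near the 19 crowded Suz12 sites within 201 kb described above, and how well reads map there was not examined. On the other autosomes 45 of 479 had no Suz12 center within 2 kb. Of the 408 Pcl3 sites of chromosome 11, called above input, 61 (15%) had no Suz12 center within 2 kb, against 18.6% of those on the other autosomes.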

How the results depend on the processing

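Of 88 recomputed values, 53 stayed within the counting interval of the reported value, 34 moved past it and 1 changed sign. The distance rule set the level of H3K27me3 loss on chromosome 11, which was 10.4%, 15.2% and 26% with centers within 500 bp, 1 kb and 5 kb, and 8.25% with H3K27me3 p-values of at most 1e-10. Its difference from the other autosomes was then 6.97, 10.3, 17.8 and 6.48 points, and 17.5 points among Suz12 sites at 1e-12. The H3K27me3 difference by Pcl3 was 12.2 points at 500 bp, 13.3 at the stricter H3K27me3 p-value, 17.7 with Pcl3 within 500 bp and 11.8 weighted over deciles.

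The Pcl3 share was 27.5%, 31.3% and 41.4% with Pcl3 within 500 bp, 1 kb and 5 kb. Among Suz12 sites at 1e-10 and 1e-12, Suz12 was lost at 81.3% and 87.6%, H3K27me3 at 23% and 24.7%, and Pcl3 was present at 42.5% and 44.6%. The Suz12 difference from the other autosomes was then 4.75 and 5.61 points, and 7.15 weighted over deciles. Suz12 loss was 70.5% when a depleted center within 2 kb counted and 69.4% with neighbouring sites merged. Its difference by Pcl3 was 34.6 points with Pcl3 within 1 kb, 35.7 by shared bases, 17.5 and 15.3 at the stricter Suz12 p-values, and −0.937 weighted over deciles, the value that changed sign. The Pcl3 difference from the other autosomes was −5.88 weighted over deciles. The median strength difference was −3.33 at 1e-12, and as width −150 bp. Except where the stricter list or the weighting itself sets the value, the cause was not tested.

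No paired analysis was possible because each condition has 1 library and no test was run. Sites are not replicates and neighbours are not independent, so the intervals understate the error between cultures. Depth was not used here, and a site missing from a list is not shown to be unbound or unchanged.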
